A study of Mus musculus with 4 samples.

Results

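Hypertrophic chondrocytes of the E14.5 mouse hindlimb were taken as barcodes with more UMIs of the cartilage genes *Acan*, *Col9a1*, *Col9a2* and *Col9a3* than of the fibroblast collagens *Col1a1*, *Col1a2* and *Col3a1*, and with at least 5 UMIs of *Col10a1*. A UMI is a molecular tag that counts 1 captured RNA molecule, and only barcodes with at least 3000 UMIs and at most 10% mitochondrial UMIs were used. The rule gave 68 hypertrophic barcodes of 1710 cartilage barcodes, 3640 barcodes of this quality and 18955 barcodes in all, and the other 1642 cartilage barcodes served for comparison. *Col10a1* thus chose the barcodes, and the difference between hypertrophic and other cartilage barcodes is described below without a test.

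The hindlimbs came from embryos carrying *Gli1*-CreER, the tdTomato reporter R26-LSL-tdT and *Tigre* TRE-p21, of a SwissWebster background, and the cells were captured with the 10x 3′ method. *Pan-Cart-p21 MOE* embryos also carried *Col2a1*-rtTA, which switches on the cell cycle inhibitor p21 in cartilage when doxycycline is given, and control embryos were without *Col2a1*-rtTA. All embryos received doxycycline (1 mg/ml in the drinking water of the mother) from E12.5 and tamoxifen (120 µg/g) at E13.5, so the control cells were exposed to both agents as well. Cells were sorted into a tdT+ fraction, whose *Gli1*-expressing ancestors had recombined the reporter, and a tdT- fraction, which also holds cells that escaped recombination. Collection 1 joined male *Pan-Cart-p21 MOE* with female control cells and collection 2 did so with the sexes exchanged, so the genotype of a barcode was read from *Xist* and 4 Y-linked genes. The 4 libraries are called tdT+ 1, tdT- 1, tdT+ 2 and tdT- 2, and both fractions of a pool came from the same embryos. The libraries held 20770520, 11945062, 31871634 and 39435830 UMIs.

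In the growth plate, chondrocytes divide in columns, leave the cell cycle, pass through a prehypertrophic state that secretes Indian hedgehog, and then swell while they lay down type X collagen. Indian hedgehog acts on perichondrial and cartilage cells and keeps up PTHrP, whose receptor *Pth1r* on prehypertrophic cells delays further maturation. Terminal hypertrophic cells calcify their matrix, secrete *Mmp13* and *Vegfa*, and give way to bone. Transcription factors of the RUNX and MEF2 families drive this programme, and the SOX trio of early chondrocytes is turned down in it.

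Promoter sequences are shown for 3 genes of these steps, *Col10a1* (type X collagen), *Spp1* (osteopontin, a mineral-binding phosphoprotein) and *Ihh* (Indian hedgehog). They are the 250 bases before the annotated start in RefSeq, build GRCm38.p6, 5′ to 3′ on the strand of the gene. Capitals mark the letters TGTGGT or TGCGGT on either strand, the core that RUNX factors are known to bind. *Col10a1* lies on chr10:34389731-34389980 on the + strand, *Spp1* (the upstream of 2 annotated starts) on chr5:104434861-104435110 on the + strand, and *Ihh* on chr1:74951673-74951922 on the - strand.
Col10a1: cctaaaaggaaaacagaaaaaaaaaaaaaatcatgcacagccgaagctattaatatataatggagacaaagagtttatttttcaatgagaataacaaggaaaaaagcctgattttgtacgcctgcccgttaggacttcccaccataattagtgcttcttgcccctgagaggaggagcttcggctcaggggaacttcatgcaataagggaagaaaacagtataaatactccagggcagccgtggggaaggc
Spp1: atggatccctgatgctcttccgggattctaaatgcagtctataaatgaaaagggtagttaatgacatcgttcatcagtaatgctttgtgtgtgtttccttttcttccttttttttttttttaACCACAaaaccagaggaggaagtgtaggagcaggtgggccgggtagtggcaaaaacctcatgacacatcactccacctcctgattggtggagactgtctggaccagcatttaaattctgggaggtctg
Ihh: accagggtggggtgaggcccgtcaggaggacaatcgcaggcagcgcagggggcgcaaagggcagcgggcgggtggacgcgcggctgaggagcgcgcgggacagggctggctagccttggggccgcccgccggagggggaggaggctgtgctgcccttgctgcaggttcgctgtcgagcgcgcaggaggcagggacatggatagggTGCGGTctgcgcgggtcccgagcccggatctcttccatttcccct
The letters occurred 0 times before *Col10a1*, 1 time before *Spp1* and 1 time before *Ihh*. They occurred 0 times before the downstream start of *Spp1* and 0 times before *Ibsp*, whose sequences are not shown. Of all 32851 promoters of this length, 18.6% held them. Of the 15 genes with the highest ratios named below, 12 had a promoter in the table and 2 of these held the letters, against 20.9% of all genes. A match of letters is a description of the sequence and not a binding site.

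The hypertrophic barcodes were spread very unevenly over the libraries. There was 1 in tdT+ 1, 8 in tdT- 1, 1 in tdT+ 2 and 58 in tdT- 2, so 85.3% came from a single library. Their median depth was 21675 UMIs (3075 to 424399), against 19942.5 in the other cartilage barcodes. The 8 barcodes of tdT- 1 were shallow, with a median of 6381 UMIs against 12121.5 in the other cartilage barcodes of that library. The single tdT+ barcodes were deep instead, at 120455 and 82214 UMIs.

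Among the 58 barcodes of tdT- 2, 30 held at least 2 UMIs of *Xist* and at least 2 UMIs of the Y-linked genes, that is 51.7% against 8.16% of the other cartilage barcodes of the library. These 30 are called sex-mixed, since they hold RNA of both embryo pools, and they were given no genotype. In the other libraries no hypertrophic barcode was sex-mixed. Of the remaining 38 barcodes, 17 were *Pan-Cart-p21 MOE*, 16 were control and 5 had no sex called. No barcode sequence was shared between hypertrophic barcodes of different libraries, while 40 were shared among all barcodes and 5 among those of sufficient quality. Within libraries, 22 hypertrophic barcodes fell into 8 sets (the largest of 5) whose members differed by little more than sampling noise over their most abundant genes. Such pairs made up 3.27% of the hypertrophic pairs of tdT- 2 against 0.283% of the other cartilage pairs there, and 7.14% against 0.850% in tdT- 1. Counting each set once left 54 profiles. What part sex-mixed and near-identical barcodes have in the results was not tested beyond the values given with and without them.

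*Col10a1* itself ranged widely among the 68 barcodes. The count was 5 UMIs at the lowest, 15 at the median and 605 at the highest. As CPM, UMIs scaled to a common total in each barcode or sum of barcodes, this was 25.9, 734 and 19793. Few barcodes were far above the rest, and 1 control barcode of tdT- 2 with 30566 UMIs held 25.5% of all 2369 *Col10a1* UMIs. There were 17 barcodes with 5 to 9 UMIs, 34 with 10 to 24 and 17 with 25 or more.

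**Figure D1:**
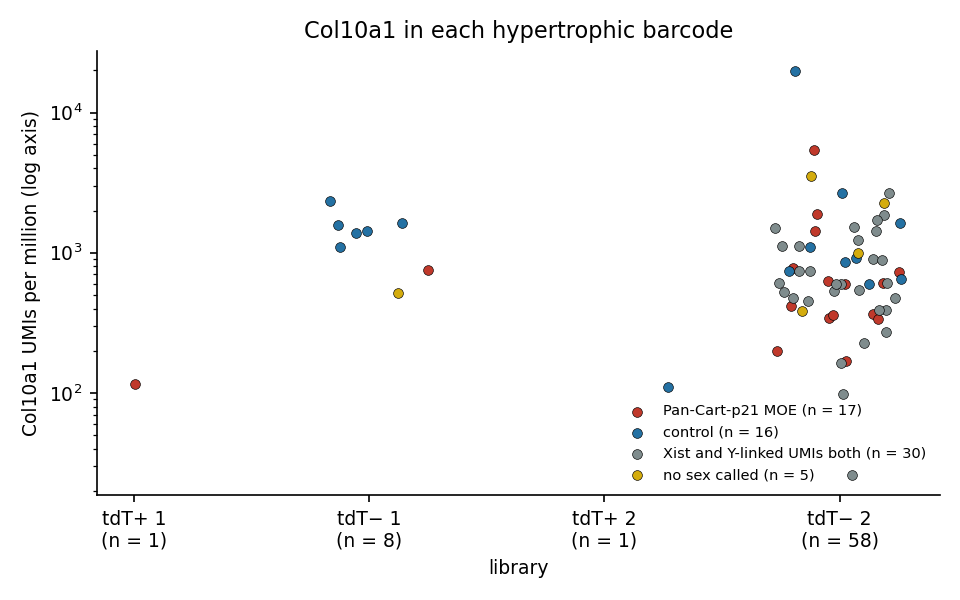
*Col10a1* in CPM (log axis) in each of the 68 hypertrophic barcodes, by library, with the colour giving the genotype read from sex. The tdT- 2 library holds 58 of the points, 30 of them grey (sex-mixed), and the highest point, at 19793, is a control barcode.

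Summed over barcodes, the *Col10a1* level was 116 CPM in the hypertrophic barcode of tdT+ 1, 1032 in those of tdT- 1, 109 in tdT+ 2 and 970 in tdT- 2. In the other cartilage barcodes it was 0.304, 5.89, 0.932 and 10.2. In the hypertrophic barcodes the rule and the depth bound the level from below, so the libraries are not compared by it. In the non-cartilage barcodes, those with as many or more UMIs of the fibroblast collagens, which should lack *Col10a1*, the level was 0.0870, 12.1, 0.0632 and 7.56, and at least 1 UMI was found in 0.251%, 11.9%, 0.150% and 13.3% of them at median depths of 26349.5, 14497, 20913 and 18840 UMIs. The share of other cartilage barcodes with at least 1 UMI was 0.905%, 8.07%, 1.83% and 19.2%. In tdT- 1 it lay below the non-cartilage share, at a median depth of 12121.5 against 14497 UMIs. The part of free RNA in it was not tested. At least 5 UMIs were found in 0, 3, 0 and 2 of the non-cartilage barcodes, or 0%, 1.38%, 0% and 0.309%. The hypertrophic shares of the cartilage barcodes were 0.450%, 2.42%, 0.228% and 8.06%. Barcodes under 1000 UMIs in the tdT- libraries held 64.2 and 89.0 CPM of *Col10a1*, against 2.68 and 2.31 in the tdT+ libraries.

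The label was checked against its markers. *Panx3*, a pannexin channel of late chondrocytes, was detected in 64 of the 68 barcodes and *Comp*, a matrix protein of cartilage and tendon, in 67. *Spp1* was detected in only 23 and *Ibsp* (bone sialoprotein, a nucleator of mineral) in 33. *Mmp13*, the collagenase of terminal cells, was at 0 in all 68 barcodes, and 0 of their 2615570 UMIs allows a level of up to 1.15 CPM. *Bglap* (osteocalcin) had 1 UMI. The prehypertrophic genes *Ihh* and *Pth1r* were detected in 61 and 64 barcodes. Detection was not counted in the other cartilage barcodes, where *Comp* lay at 179, *Pth1r* at 71.5, *Panx3* at 30.5 and *Ihh* at 23.7 CPM. Detection of these genes alone thus does not set the hypertrophic barcodes apart. Most hypertrophic barcodes held at least 1 UMI of these genes beside *Col10a1*. They include all 30 sex-mixed barcodes, and the part of RNA from other cells in this was not tested. The 6 control barcodes of tdT- 1 differed, of which 2 held a UMI of *Ihh* and 2 a UMI of *Pth1r*.

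*Spp1* and *Ibsp* divided the barcodes rather than marking all of them. At least 5 UMIs of *Spp1* were present in 14 barcodes and at least 5 of *Ibsp* in 15, with 4 barcodes holding both and 43 holding neither. Of the 43 without either, 24 were sex-mixed, against 6 of the 25 with at least 1 of the 2 genes. In tdT- 1 all 6 control barcodes held *Spp1*, from 21 to 103 UMIs, and none held a UMI of *Ibsp*. The *Spp1* count per *Col10a1* UMI was nearly the same in these 6 barcodes, from 3.43 to 5.29, although their depths ran from 3593 to 12770 UMIs. Of these 6 barcodes, 4 formed 2 near-identical pairs. In tdT- 2 the ratio ran from 0.581 to 4.06 in the 3 *Pan-Cart-p21 MOE* barcodes with at least 5 UMIs of *Spp1*, which also held *Ibsp*, and was 0.782 and 9.32 in the 2 such control barcodes.

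**Figure D2:**
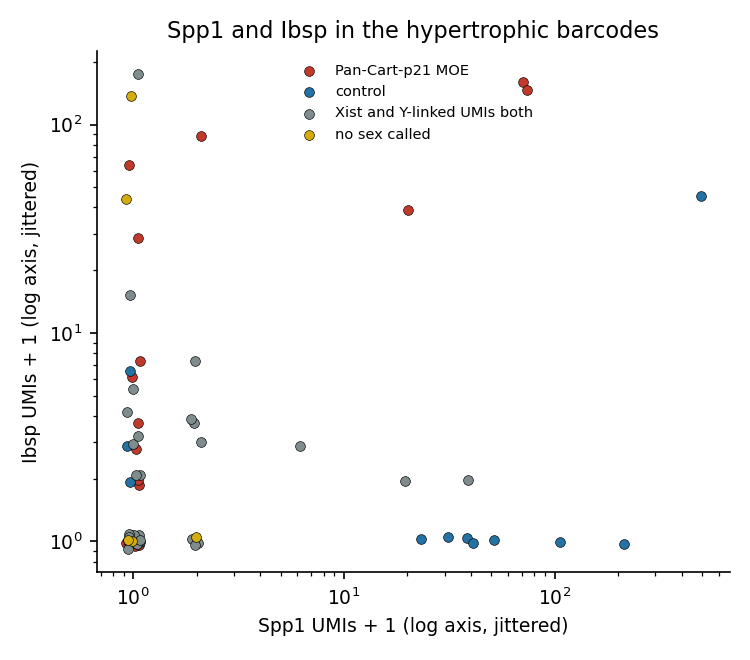
*Ibsp* against *Spp1*, each as UMIs plus 1 on a log axis with a small jitter, in the 68 hypertrophic barcodes coloured by genotype. Of the 68 points, 43 lie under 5 UMIs of both genes and 4 reach 5 UMIs of both. Of the 16 control barcodes, 8 reach 5 UMIs of *Spp1*.

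Neither gene is specific to cartilage in these libraries. In the non-cartilage barcodes *Ibsp* reached 24.8 and 97.6 CPM in the tdT+ libraries and 2.23 and 4.52 in the tdT- libraries, and *Spp1* lay between 13.6 and 49.5 in the 4 libraries. In the tdT+ libraries the other cartilage barcodes were below the non-cartilage ones for both, at 1.67 and 2.03 for *Ibsp* and 3.49 and 9.41 for *Spp1*. The 2 tdT+ hypertrophic barcodes held no *Spp1*, and *Ibsp* was 3 UMIs in the first and 0 in the second.

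To see what accompanies *Col10a1*, levels in CPM were compared in each library between the hypertrophic and the other cartilage barcodes, as log2 ratios with 10 added to both levels. The ratios quoted for a gene are means over the 2 tdT- libraries, since each tdT+ library had 1 such barcode. Of 13318 genes with at least 100 UMIs, 8 (0.0601%) were at least 4-fold higher in each of the 4 libraries and 5 (0.0375%) at least 4-fold lower. The 8 were *Col10a1*, *Comp*, *Ihh*, *Panx3*, *Pltp*, *Pth1r*, *Serinc5* and *Smpd3*, and *Cadm2*, *Csmd3*, *Negr1* and *Zfpm2* were among the 5. At 2-fold in both tdT- libraries, 110 genes (0.826%) were higher and 205 (1.54%) lower, and the median over all genes was -0.24, which is the level against which the ratios should be read. Without tdT- 2 the 4-fold counts were 10 higher and 87 lower, and over the 2 tdT- libraries alone 24 and 6. These counts come from the contrast that the rule defined and describe it only.

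*Ihh* and *Pth1r*, the ligand and the receptor of the loop that paces maturation, were among the genes with the highest ratios. The *Ihh* level was 174, 386, 341 and 215 CPM in the hypertrophic barcodes of tdT+ 1, tdT- 1, tdT+ 2 and tdT- 2, against 10.8, 27.1, 17.9 and 31.5 in the other cartilage barcodes. The *Pth1r* level was 1005, 1397, 353 and 669 against 48.0, 79.8, 66.6 and 81.0. The 2 classes did not overlap between libraries for either gene. The share of all genes without overlap was not counted, so this describes the values only. The values of tdT- 1 came mostly from 2 of its 8 barcodes, since its 6 control barcodes held 2 UMIs of each gene (51.3 CPM), which for *Pth1r* is below the 72.5 CPM of the other control cartilage barcodes there and for *Ihh* above their 22.5. The log2 ratio was 2.93 for *Ihh* and 3.44 for *Pth1r*, and it was 3.07 and 3.63 without the sex-mixed barcodes and 2.66 and 3.01 with each near-identical set counted once. The hedgehog targets did not follow the ligand: *Ptch1* (the hedgehog receptor) had a ratio of -0.97 and *Gli1* (its transcriptional effector) of -0.92, with 11 *Gli1* UMIs in all 68 barcodes. With each near-identical set counted once they were at -0.31 and -0.47, nearer to the median of all genes given above.

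Of the other prehypertrophic genes, *Bmp6* and *Mef2c* were 2-fold higher in both tdT- libraries. *Bmp6*, a BMP ligand of hypertrophic cartilage, had a ratio of 2.83, *Mef2c*, which activates *Col10a1*, of 1.44, *Runx2* of 1.06 and *Sp7* (osterix) of 1.09, the last 2 with only 0.67 and 0.77 in tdT- 2. Of 19 prehypertrophic genes measured, 4 (*Ihh*, *Pth1r*, *Mef2c* and *Bmp6*) were 2-fold higher in both tdT- libraries and 1 was 2-fold lower, *Hdac4*, a repressor of *Runx2* and MEF2 activity. The median was 0.39. Of 10 genes of late hypertrophy and matrix resorption, none passed 2-fold in either direction, with a median of 0.43. *Vegfa*, which draws in vessels, had a mean ratio of 0.04 from opposite values, 0.72 in tdT- 1 and -0.64 in tdT- 2. In the tdT+ 1 and tdT+ 2 barcodes it was -0.79 and -3.27. *Timp1*, an inhibitor of matrix proteases, had a ratio of 0.91.

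Mineralization genes were higher in part. Of 15 measured, 4 passed 2-fold upwards and none downwards, with a median of 0.80. *Smpd3*, a sphingomyelinase needed for mineralization, had 764, 438, 949 and 377 CPM in the hypertrophic barcodes against 10.8, 60.0, 37.7 and 48.1, a log2 ratio of 2.71. *Alpl*, the phosphatase that frees phosphate, was found in 34 barcodes with a ratio of 1.61. *Ibsp* and *Spp1* had ratios of 5.14 and 5.46 in the tdT- libraries. *Spp1* was 2940 CPM in tdT- 1 and 395 in tdT- 2, against 18.5 and 11.7 in other cartilage barcodes.

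Bone-associated genes were among the highest ratios. *Ifitm5*, a membrane protein of bone-forming cells, had a ratio of 3.84 and was found in 54 barcodes, with 365, 427, 60.8 and 194 CPM against 5.92, 11.8, 12.2 and 9.97. Of 11 osteoblast genes measured, 6 passed 2-fold upwards, among them *Ifitm5*, *Alpl*, *Spp1*, *Ibsp* and *Cgref1*, with a median of 1.61. The list shares *Alpl*, *Spp1* and *Ibsp* with the mineralization list. Its most abundant gene *Col1a1*, which the rule used, did not follow them, with a ratio of -0.46, and *Bglap2* was at 0.

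The 15 genes with the highest ratios among those higher in all 4 libraries were *Col10a1* (5.82), *Ifitm5*, *Nupr1* (3.69), *Pth1r*, *Slc13a5* (3.34), *Hspb1* (3.01), *Ihh*, *Bmp6*, *Fabp3* (2.82), *Serinc5* (2.74), *Smpd3*, *Pltp* (2.63), *Ddit4l* (2.62), *Comp* (2.61) and *Panx3* (2.55). *Nupr1* is a stress-induced nuclear protein, *Slc13a5* a citrate transporter, *Hspb1* a small heat shock protein, *Fabp3* a fatty acid binding protein and *Pltp* a phospholipid transfer protein. *Panx3* was 556, 261, 596 and 277 CPM in the hypertrophic barcodes against 8.96, 39.2, 30.2 and 35.8. On the list of 12 ion channel and transporter genes, which does not hold *Slc13a5*, 1 gene passed 2-fold in both tdT- libraries, *Panx3*.

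**Figure D3:**
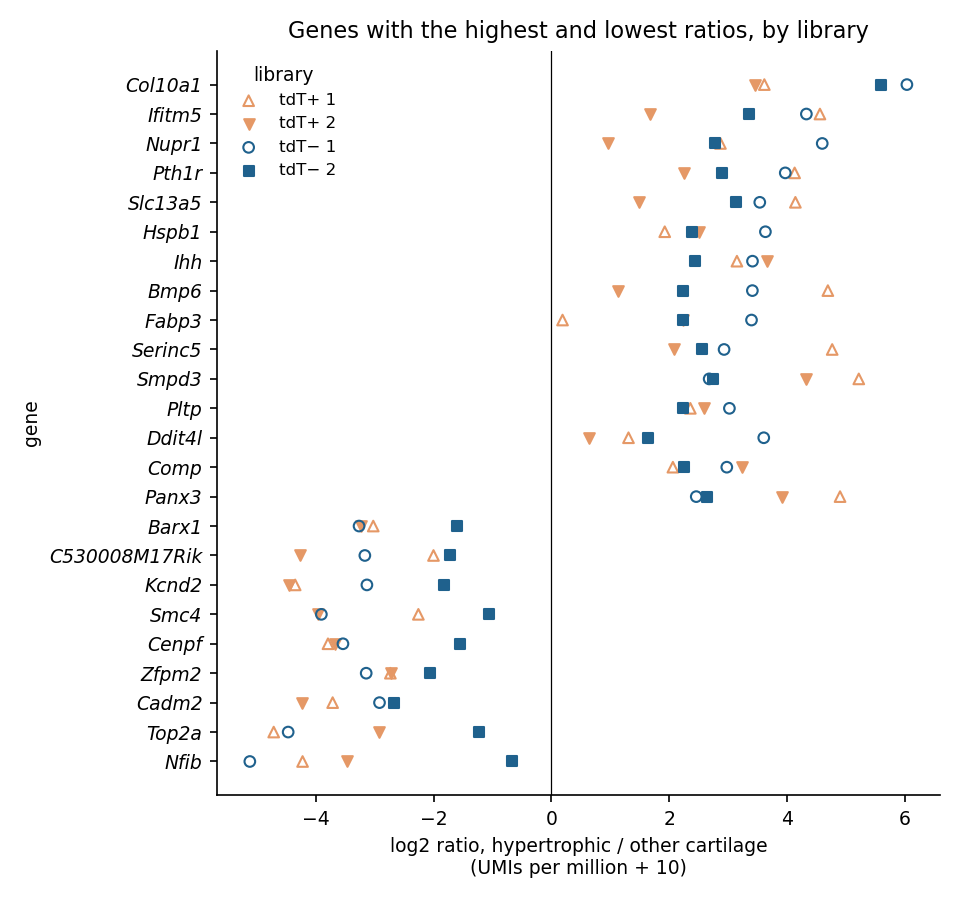
Log2 ratio of the level in hypertrophic to that in other cartilage barcodes (CPM plus 10) for the 15 highest genes and 9 of the 10 lowest, with a symbol for each library. All 24 genes lie on the same side of 0 in the 4 libraries, and the lowest genes lie nearer to 0 in tdT- 2 than in tdT- 1.

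Several cartilage matrix genes were higher. *Hapln1*, the link protein that holds aggrecan to hyaluronan, had a ratio of 1.81, *Snorc*, a chondrocyte proteoglycan, of 1.72 and *Col2a1*, type II collagen, of 0.86. The *Col2a1* level was 11199, 13315, 9500 and 8618 CPM against 4938, 5673, 5625 and 6120. Of 23 matrix genes, 3 passed 2-fold upwards (*Hapln1*, *Comp* and *Snorc*) and none downwards. *Epyc*, a small proteoglycan of the proliferative zone, had ratios of -2.79 in tdT- 1 (3 UMIs) and -0.68 in tdT- 2 but of 0.46 and 1.23 in the tdT+ barcodes, and *Matn3* had a mean ratio of 0.29.

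Some regulators of early chondrocytes were lower in the tdT- libraries. *Sox9*, the master factor of chondrocyte fate, was 209 CPM in the hypertrophic barcodes of tdT- 1 and 340 in tdT- 2, against 663 and 648, but in the deep tdT+ 2 barcode it was 827 against 700. Its partners *Sox5* and *Sox6* had ratios of -1.33 and -1.35, but 0.13 and 0.79 in the tdT+ 1 barcode. Of 19 regulators, 3 (*Sox5*, *Sox6* and *Creb5*) passed 2-fold downwards and none upwards, with a median of -0.48. *Fgfr3*, the FGF receptor that restrains proliferation, had a ratio of 0.87.

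Resting zone genes were split. *Barx1*, a homeobox gene of early cartilage, was at 0 in the hypertrophic barcodes of 3 libraries and 15.1 CPM in tdT- 2, against 66.6 to 86.3 in the other cartilage barcodes, and *Gas1*, a hedgehog co-receptor, was at 0 in the 8 shallow barcodes of tdT- 1, where 0 allows up to 31.3 CPM, but at 120 CPM in tdT- 2 against 141 in the others there, a log2 ratio of -0.21. The Wnt inhibitor *Wif1* and the membrane protein *Cd200*, which are on the same list, had ratios of 2.33 and 2.39. The median of the 12 genes was -0.98, and 2 passed upwards and 1 downwards. Of 17 Wnt and BMP antagonists, 2 passed upwards, *Wif1* and *Bambi* (1.97), and none downwards. Of 9 proliferative zone genes, 1 passed downwards, *Sox6*, with a median of -0.03.

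Cell cycle transcripts were lower in the hypertrophic barcodes, less so in tdT- 2 than in the other libraries. The 29 genes of the list summed to 133, 282, 730 and 1269 CPM, against 2418, 2304, 2229 and 2118 in the other cartilage barcodes. *Mki67* was at 0 in 3 libraries and 36.3 CPM in tdT- 2, against 65.7 to 90.3 in other cartilage barcodes, and 0 allows up to 24.9, 31.3 and 36.5 CPM in those 3 libraries. Its log2 ratio in tdT- 2 was -0.88. *Top2a*, a topoisomerase of dividing cells, had a ratio of -1.22 and *Cenpf*, a kinetochore protein, of -1.55 in tdT- 2, and both were at 0 in tdT- 1. Of 29 cell cycle genes, 4 passed 2-fold downwards in both tdT- libraries (*Top2a*, *Cenpf*, *Mcm3* and *Hells*) and none upwards, and the median was -1.36, or -1.68 without the sex-mixed barcodes. *Mki67* was still detected in 27 of the 68 barcodes, 16 of them sex-mixed ones, which held 58 of its 84 UMIs.

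The cell cycle inhibitors *Cdkn1c* and *Cdkn1a* were higher in the tdT- libraries. *Cdkn1c* (p57), which chondrocytes switch on as they leave the cycle, was 8136, 12105, 7578 and 7123 CPM in the hypertrophic barcodes against 2772, 3399, 2832 and 3096, a ratio of 1.51. *Cdkn1a* (p21) was 594 and 227 in the tdT- libraries against 44.0 and 50.02, a ratio of 2.73, but 36.5 against 55.3 in the tdT+ 2 barcode. The p21 transgene cannot be separated from the reporter, because 3′ reads of both fall mostly in the shared WPRE element. The WPRE level was lower in the hypertrophic barcodes of every library, with 158, 93.8, 426 and 459 CPM against 982, 310, 1282 and 778. Of 11 CDK inhibitors and D cyclins, 2 passed upwards (*Cdkn1a* and *Cdkn1c*) and 1 downwards (*Ccnd1*), with a median of -0.55.

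Metabolic and secretory genes showed no such pattern. Of 22 glycolysis and hypoxia genes none passed 2-fold in both tdT- libraries, with a median of -0.09, and of 21 genes of the secretory pathway and the unfolded protein response none passed, with a median of -0.01. Of 18 genes that respond to tissue digestion, 1 passed upwards (*Dnajb1*) and 1 downwards (*Egr1*), with a median of -0.66. *Fos* had a ratio of -1.57. None of 5 CCN genes passed, with a ratio of 0.59 for *Ccn2*, which was 0.08 in tdT- 1, 1.11 in tdT- 2 and 1.13 with each near-identical set counted once.

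Markers of other cell types were summed over short lists, with every member of a short list counted. Epidermal *Krt14* and *Krt5* were at 0 in all hypertrophic barcodes. The muscle genes *Myod1*, *Myog* and *Actc1* summed to 8.30, 0, 0 and 192 CPM in the hypertrophic barcodes of tdT+ 1, tdT- 1, tdT+ 2 and tdT- 2, against 8.05, 96.0, 2.80 and 48.6 in the others. *Actc1*, the most abundant, was detected in 8 barcodes. The tendon genes *Scx* and *Tnmd* summed to 112 in tdT- 2 against 28.2 and to at most 10.4 in the other libraries, and the macrophage and osteoclast genes *Csf1r*, *Tyrobp*, *Cd68*, *C1qa*, *Acp5* and *Ctsk* to 59.1 against 37.7. In tdT- 2 the muscle, tendon and macrophage lists were thus higher in the hypertrophic barcodes, while the endothelial genes (150 against 158 CPM) and the erythroid genes (12.1 against 21.6) were not. In the 38 barcodes that were not sex-mixed the macrophage sum was 18.2 with *Tyrobp* and *C1qa* at 0. The muscle sum was 241 CPM there and 104 in the sex-mixed barcodes, and it rested on single barcodes: in the *Pan-Cart-p21 MOE* cells 1 barcode held 178 of 179 *Actc1* UMIs and 1 held 108 of 109 of *Myog*, and in the sex-mixed group 1 held 82 of 85 and 1 held 47 of 48. The endothelial genes summed to 161 over all hypertrophic barcodes against 124, most of it *Pecam1*, the erythroid genes to 10.7 against 13.7 and the glial genes to 31.0 against 32.5. In the tdT+ 1 barcode the endothelial sum was 540 against 78.2 in the others there, all of it *Pecam1*. In the tdT+ 2 barcode it was 0 against 122. *Gdf5* of the joint interzone had 4 UMIs in all.

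Among the genes of the full lists for these other cell types, none of 8 macrophage and osteoclast, 6 endothelial, 4 erythroid, 5 muscle, 4 tendon, 7 perichondrial, 3 glial genes or 1 epidermal gene was 2-fold apart in both tdT- libraries. Of 4 interzone genes 1 was lower, *Osr2*. What part RNA of other cells has in the levels of the hypertrophic barcodes was not tested.

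Grouping all 1710 cartilage barcodes by their *Col10a1* count showed how the other genes lie across the threshold of 5 UMIs. Just outside it, the 14 barcodes with 3 to 4 UMIs had 111 *Ihh*, 322 *Pth1r*, 154 *Panx3* and 444 *Comp* CPM. Just inside it, the 4 barcodes with 5 to 6 UMIs had 220, 504, 147 and 605. These genes were already higher in the 149 barcodes with 1 to 2 UMIs, at 71.9, 144, 88.0 and 304, against 16.5, 58.9, 21.6 and 160 in the 1479 barcodes with none.

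*Ibsp* followed another course. It was 2.80, 7.62, 7.07, 36.7 and 18.6 CPM from 0 up to 7 to 14 *Col10a1* UMIs and 711 in the 35 barcodes with 15 or more. *Spp1* was 7.33 in barcodes without *Col10a1*, 56.5 at 3 to 4 UMIs, 248 at 5 to 6, 181 at 7 to 14 and 701 at 15 or more. *Barx1* was 78.1 without *Col10a1*, 60.3 at 1 to 2 UMIs, 5.30 at 3 to 4, 9.17 at 5 to 6, 23.0 at 7 to 14 and 5.81 at 15 or more. *Mki67* was 73.7, 82.7 and 70.7 in the 3 groups outside the threshold and 18.3, 36.3 and 29.8 in the 3 inside. The share of sex-mixed barcodes also differed across the threshold, with 7.14% at 3 to 4 UMIs, 50% at 5 to 6 and 42.9% at 15 or more. The groups are of unequal depth and library, and 535 of the 1479 barcodes without *Col10a1* but 33 of the 35 with 15 or more came from tdT- 2.

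**Figure D4:**
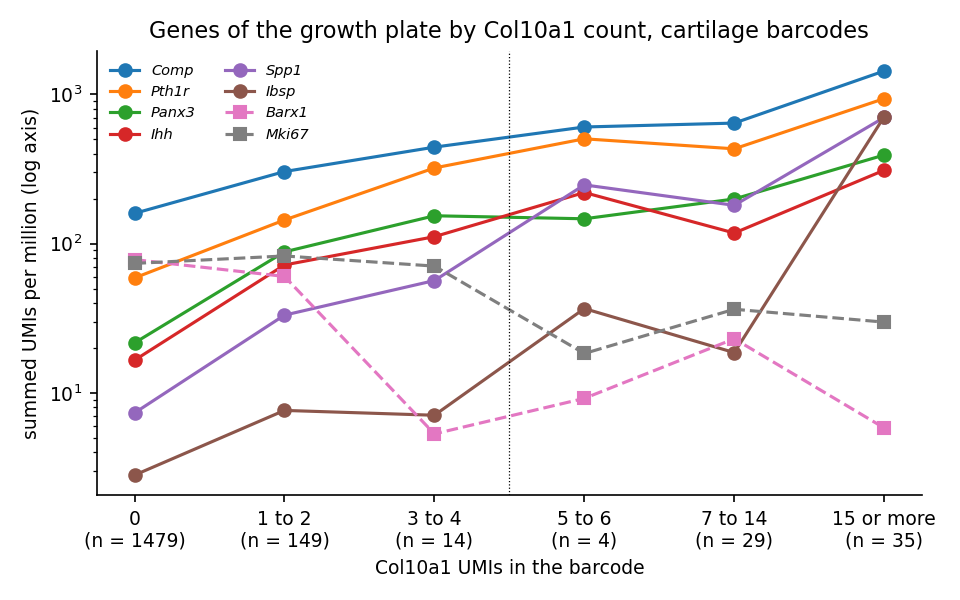
Summed level in CPM (log axis) of 8 growth plate genes in cartilage barcodes grouped by their *Col10a1* count, with the number of barcodes under each group and a dotted line at the threshold of 5 UMIs. *Comp*, *Pth1r*, *Panx3* and *Ihh* are higher from 1 to 2 UMIs on, whereas *Ibsp* reaches 711 only in the last group.

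The tdT+ fraction holds labelled cells of the *Gli1* lineage, and the tdT- fraction the rest, including lineage cells that escaped recombination. The frequency of hypertrophic chondrocytes was compared between these fractions. The share of hypertrophic among cartilage barcodes was 1.28%, 0%, 0% and 1.23% in the tdT+ cells of the 4 embryo pools and 2.22%, 3.49%, 3.72% and 7.89% in the tdT- cells (in the order male *Pan-Cart-p21 MOE*, female control, then female *Pan-Cart-p21 MOE*, male control). The fractions did not overlap, and the tdT- share was higher in 4 of 4 pools. The shares rest on 1 of 78, 0 of 92, 0 of 275 and 1 of 81 barcodes against 1 of 45, 6 of 172, 15 of 403 and 9 of 114. Taking 3 counts as the limit, 0 of 92 allows a share of up to 3.26% and 0 of 275 one of up to 1.09%, and the exact two-sided 95% intervals reach 3.93% and 1.33%. The means were 0.629% ± 0.727 (SD, n = 4) and 4.33% ± 2.46 (SD, n = 4), a difference of -3.70 percentage points (exact permutation test, two-sided, p = 0.0286, below which 4 against 4 cannot go).

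The difference was in the same direction but did not pass when the fractions were exchanged only within an embryo pool, where p = 0.125 is the smallest that the exact permutation test allows. With at least 10 *Col10a1* UMIs it was -2.69 points (exact permutation p = 0.257). With all barcodes of the 4 libraries, sex-mixed ones included, the shares were 0.450% (exact binomial 95% interval 0.0114 to 2.48) and 0.228% (0.00578 to 1.27) in tdT+ against 2.42% (1.05 to 4.72) and 8.06% (6.17 to 10.3) in tdT-, and 2 against 2 cannot go below the exact permutation p = 0.333 that they gave. The intervals cover counting error only. The 2 tdT- libraries themselves differed by more than their intervals.

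Depth bears on a fixed count of 5 UMIs, so each barcode was also thinned to 3000 UMIs. At least 5 UMIs then remained in 0, 5, 0 and 12 barcodes of tdT+ 1, tdT- 1, tdT+ 2 and tdT- 2, and at least 1 UMI in 0.450%, 6.97%, 0.457% and 12.4% of cartilage barcodes. The difference between the fractions was -1.98 points at 5 thinned UMIs (exact permutation p = 0.0286), and it was -3.32 points with 1 barcode per near-identical set (exact permutation p = 0.0286).

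**Figure D5:**
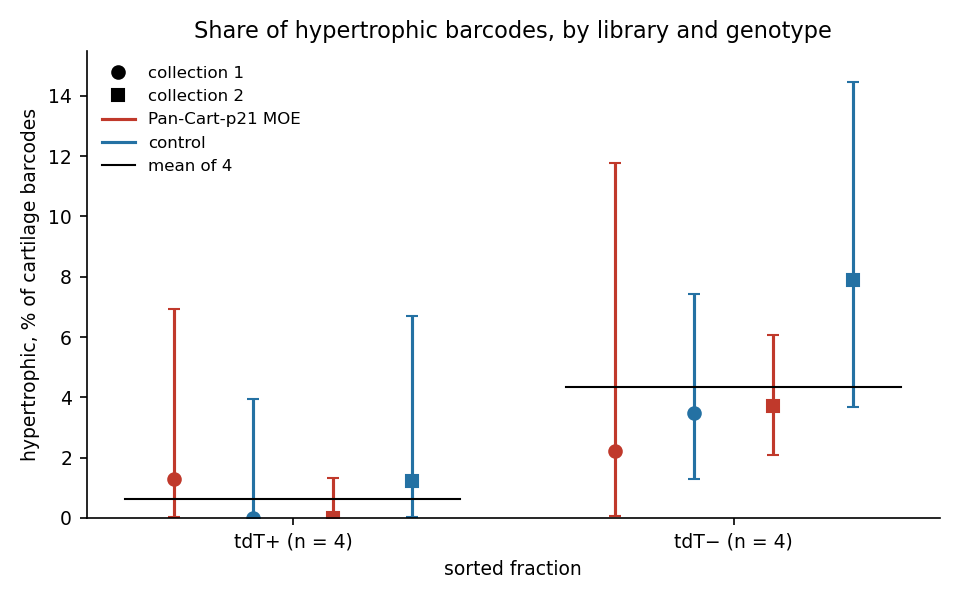
Share of hypertrophic among cartilage barcodes, in percent, for each library and genotype, with exact binomial 95% intervals and a line at the mean of 4. The 4 tdT+ values lie between 0 and 1.28%, below the 4 tdT- values at 2.22% to 7.89%, while the 2 genotypes overlap in both fractions.

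Between the genotypes no difference in frequency was detectable. The *Pan-Cart-p21 MOE* share was 1.81% ± 1.57 and the control share 3.15% ± 3.47 (SD, n = 4 each), a difference of -1.35 percentage points (exact permutation test, two-sided, p = 0.686, or 0.5 within libraries). Within the libraries the control share was higher in 3 of 4 and lower in tdT+ 1. The difference turned to 0.232 points without the control cells of tdT- 2. The low counts leave room for differences of either sign, since 35 of the 68 barcodes had no genotype and the shares rest on at most 15.

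The fraction was next examined in the summed counts of all cartilage barcodes, where *Col10a1* was not thresholded. In such sums fewer hypertrophic cells and less *Col10a1* RNA per cell cannot be told apart. The normalised *Col10a1* level was 5.17, 0.384, 1.15 and 4.03 CPM in the tdT+ pools and 8.40, 23.1, 40.7 and 218 in the tdT- pools, in the order given above. The fractions did not overlap, but the share of all genes without overlap was not counted. The non-cartilage barcodes of tdT- 1, at 12.1 CPM, were above the first of the tdT- values, and those of the tdT- libraries were far above those of the tdT+ libraries, as given above. What part free RNA has in this difference was not tested. The means were 2.69 ± 2.29 and 72.6 ± 97.9 (SD, n = 4), with a log2 fold change of -4.64 (SE 0.89) and an adjusted p of 0.342 in edgeR (quasi-likelihood test, adjusted over all genes by Benjamini-Hochberg). With the hypertrophic barcodes left out of the sums, an alternative chosen after seeing the data, the log2 fold change of *Spp1* went from -2.81 to -0.70. That of *Col10a1* was -3.22 there (adjusted p = 0.224 in edgeR). The barcodes left out were chosen by *Col10a1*, so this value decides nothing about that gene. The exact permutation test of *Col10a1* in the full sums gave p = 0.0286, the smallest possible, and 0.212 after adjustment over 26 such tests. The highest value depended on 1 barcode, which held 69.2% of the *Col10a1* UMIs of the tdT- 2 control cells, and without it their unnormalised level was 65.8 instead of 212 CPM.

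In that fit 2 of 12782 genes (0.0156%) passed an adjusted p of 0.05, 1 in each direction (0.00782%), and 748 had an unadjusted p under it. The reporter *tdt* rose in tdT+ cells (log2 fold change 3.81, SE 0.24, adjusted p = 9.11e-05 in edgeR), with 18.4 to 21.99 against 1.14 to 2.29 CPM. *Hbb-y*, an embryonic globin, fell (log2 fold change -6.32, SE 0.79, adjusted p = 0.0450 in edgeR), with at most 0.128 against 2.29 to 16.8, but it lost the call when any 1 of 6 sums was left out, the exceptions being the *Pan-Cart-p21 MOE* sum of tdT- 1 and the control sum of tdT- 2. None of the 5 hypertrophic markers passed without a block (0 of 5), 5 of 5 had negative fold changes, and their median was -2.81 against -0.01 over all genes. Muscle and macrophage markers lay on the same side, with 5 of 5 muscle genes negative (median -2.02) and 4 of 5 osteoclast or macrophage genes negative (median -1.28), none of which passed, and their part in the difference was not tested. Values were -2.81 for *Spp1*, -3.70 for *Ibsp* and -0.80 for *Comp* (edgeR adjusted p = 0.729, 0.407 and 0.749). *Ihh* and *Pth1r* had -1.15 and -0.76 with adjusted p of 0.749 and 0.794 in edgeR. The edgeR fit was repeated with the embryo pool as block, since both fractions of a pool share their embryos. This left 3 residual degrees of freedom, so its p-values rest on the spread of few sums. Of 13346 genes, 1003 then had an unadjusted p under 0.05, and 30 passed, 4 upwards and 26 downwards. *Col10a1* (-4.57, adjusted p = 0.0138 in edgeR), *Comp* (-0.81, adjusted p = 0.00566 in edgeR), *Ihh* (-1.10, adjusted p = 0.0446 in edgeR) and *Cdkn1c* (-0.28, adjusted p = 0.0447 in edgeR) were among them. *Spp1* (-2.87), *Ibsp* (-3.57) and *Pth1r* (-0.72) did not pass with the block (edgeR adjusted p = 0.367, 0.145 and 0.320). Without the block, the rest of the growth plate lists held no gene that passed, with medians from -0.27 for 9 proliferative genes to 0.10 for 10 late hypertrophy genes.

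*Ostn* (osteocrin, a secreted peptide of bone-forming cells) resembled *Col10a1* in this contrast. Its level was 0.345, 0.768, 0.256 and 0 CPM in the tdT+ pools and 0.763, 7.80, 9.65 and 12.2 in the tdT- pools, which overlap. The log2 fold change was -4.49 (SE 0.67, adjusted p = 0.115 in edgeR). Between the genotypes, the WPRE level of all cartilage barcodes was 1147 ± 347 with and 310 ± 267 without the rtTA (SD, n = 4) without overlap (exact permutation p = 0.0286, the smallest possible, 0.212 adjusted over 26), so the genotype read from sex goes with the transgenes. Here too the share of all genes without overlap was not counted.

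Within the hypertrophic barcodes the genotypes were compared in tdT- cells, since each tdT+ library held 1 such barcode, where 6 control barcodes of tdT- 1, 15 *Pan-Cart-p21 MOE* and 9 control barcodes of tdT- 2 were summed. No gene of 5558 passed edgeR's test (0%), 32 had an unadjusted p under 0.05, and DESeq2 called 0. The single *Pan-Cart-p21 MOE* sum is assumed to vary like the control sums, so the lack of calls is not read as equal genotypes. *Col10a1* was 1718, 570 and 2812 CPM in these 3 sums and 700 in the sex-mixed barcodes of tdT- 2. Without its highest barcode the tdT- 2 control sum was 897.

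*Spp1* and *Ibsp* lay apart in this comparison, though neither passed in the fit as designed. *Spp1* was 7230 and 2248 CPM in the control sums and 277 in the *Pan-Cart-p21 MOE* sum (log2 fold change -3.88, SE 1.20, adjusted p = 0.913 in edgeR). The call depended on the setting, with an adjusted p of 0.000421 in limma-voom and, in edgeR, of 0.000137 with at least 3 *Col10a1* UMIs and 0.0499 with the fractions of a pool summed. The limma-voom fit and that with 3 *Col10a1* UMIs left 1 residual degree of freedom and the summed fit 2, so the p rest on the spread of very few sums and are not read as a genotype difference. *Ibsp* was 0 and 182 against 902, with 541 UMIs in 10 of the 15 *Pan-Cart-p21 MOE* barcodes. Among the control barcodes of tdT- 2, 1 barcode held 473 of the 678 *Spp1* UMIs. The 30 sex-mixed barcodes were low in both, at 51.8 and 160.

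Most UMIs of several genes with the lowest p came from single barcodes. *Acta2*, *Actc1* and *Myog*, which mark smooth and skeletal muscle, had the lowest p upwards (edgeR adjusted p of 0.140, 0.148 and 0.263), and 1 barcode held 87 of 91, 178 of 179 and 108 of 109 of their UMIs in the *Pan-Cart-p21 MOE* sum. Downwards they were *Gm48521*, *Spp1* and *Tnmd* (edgeR adjusted p of 0.556, 0.913 and 0.913), and 1 control barcode held all 46 *Tnmd* UMIs of tdT- 2. *Tnmd* encodes tenomodulin of tendons.

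Some growth plate genes were close in the sums of tdT- 2 and others were not. *Ihh* was 217 CPM in *Pan-Cart-p21 MOE* and 289 in control cells, *Pth1r* 782 and 912 and *Col2a1* 10101 and 9199, whereas *Sox9* was 212 and 531 and *Alpl* 51.7 and 106. In the control sum single barcodes held 72 of 160 UMIs of *Sox9*, 19 of 32 of *Alpl* and 48 of 87 of *Ihh*. Neither closeness nor distance in these sums is thus read as a genotype effect. The 6 shallow control barcodes of tdT- 1 differed from both, with 2 UMIs each of *Ihh* and *Pth1r* (51.3), 1795 of *Bmp6* against 289 and 361, and 795 of *Cdkn1a* against 262 and 501. *Cdkn1a* was thus not higher in the *Pan-Cart-p21 MOE* sum than in either control sum. The WPRE level was 684 in *Pan-Cart-p21 MOE*, 51.3 and 36.5 in the control sums and 459 in the sex-mixed barcodes.

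Whether the genotype difference of hypertrophic barcodes differs from that of the other cartilage barcodes was tested as an interaction in the same 3 library and genotype combinations. Here too a single combination is *Pan-Cart-p21 MOE* and is assumed to vary like the controls. A lack of calls is therefore not read as equal differences. No gene of 13138 passed (0%), 93 had an unadjusted p under 0.05, and DESeq2 called 0. The lowest p were again those of *Actc1*, *Myog* and *Acta2* (edgeR adjusted p = 0.376 for *Actc1* and 1 for the other 2). The downward genes of lowest p were *Tesc*, *Tnmd* and *Cdh5*, each with an adjusted p of 1 in edgeR.

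The fractions were compared within the hypertrophic barcodes over the 4 libraries, with 1 barcode in each tdT+ library. The tdT+ side thus consists of single barcodes, so the fit takes the spread between cells for that between samples. No difference between the fractions is read from its p-values. No gene of 1894 passed edgeR's test (0%), 94 had an unadjusted p under 0.05, and DESeq2 called 4. Leaving out 1 library moved the count widely, but it leaves 1 library on a side and is not read. The genes of lowest p downwards in tdT+ were *Tmsb4x* (thymosin beta 4, an actin-binding peptide) and *Xist*, each with an adjusted p of 0.0834 in edgeR. *Col10a1*, whose level in these barcodes is set by the rule and the depth, is left out of the genes named, though the fit included it. *Xist* was at 0 in both tdT+ barcodes, which are male. Upwards they were *Hs6st3*, *Zbtb20* and *Ppa1* (edgeR adjusted p of 0.452, 0.752 and 0.833).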

How the data were processed

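Hindlimb cells of E14.5 embryos were captured with the 10x 3′ method, and the authors aligned the reads with Cell Ranger 7.2.0 to GRCm38 with added transgene sequences. The deposited values are UMI counts per gene and barcode, not normalised, and no sign of a removal of free RNA or doublets was found in them. The libraries held 2541 to 6455 barcodes, and those under 1000 UMIs had medians of 600 to 889 UMIs. These numbers point to a selection of barcodes by count before deposit. The barcodes under 1000 UMIs are therefore not taken as empty droplets. Libraries held 11945062 to 39435830 UMIs, and the 68 hypertrophic barcodes 2615570.

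Barcodes needed 3000 UMIs and at most 10% mitochondrial UMIs. Sex was called from at least 2 UMIs with 80% on 1 side (*Xist* against *Ddx3y*, *Eif2s3y*, *Kdm5d* and *Uty*), and genotype from sex by the multiplexing in the study's methods. For the female *Pan-Cart-p21 MOE* sample those methods list 1 embryo where the results describe pools. Scrublet marked 2, 0, 2 and 3 barcodes by its own threshold and so did not work, and the top 5% of its scores were left out only as an alternative. Pairs of barcodes were called near-identical where the mean squared deviation of their counts from a common profile was under 1.25 times sampling noise, over genes with at least 10 UMIs in the pair, and a set is a group in which every pair is. Levels are CPM computed from the UMI counts, and counts were thinned with a fixed seed.

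Files were read in Python 3.11.15 with numpy 2.4.6, scipy 1.17.1, pandas 2.3.3 and scanpy 1.11.5. Summed counts with at least 5 barcodes were fitted in R 4.3.3 with edgeR 4.0.16 (filterByExpr, TMM, glmQLFit and glmQLFTest, Benjamini-Hochberg threshold 0.05). limma 3.58.1 and DESeq2 1.42.0 were alternatives, and the scripts were tested on simulated data. In the genotype comparison the fraction was constant, since both tdT+ libraries fell short of 5 barcodes. The comparison of fractions could not be fitted as designed for the same reason, and whole libraries were compared instead. The fit over all cartilage barcodes was added after seeing the data. Its levels are scaled by TMM. Shares were compared by exact permutation tests over 8 combinations of library and genotype. Both fractions of a pool come from the same embryos, so the pool is a block in an alternative. Deviations of their summed cartilage counts correlated at r = 0.154 and 0.129 in the control pools and 0.0622 and 0.363 in those with *Pan-Cart-p21 MOE*, across genes, which are not independent replicates. The 8 values thus stand for 2 pools per genotype. The tests without a block treat them as 8 independent sums, so their p-values do not measure the spread between pools.

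The genes named are the markers and those of the rule, the members of fixed gene lists with the largest ratios, the 15 highest and 10 lowest genes with the same direction in 4 libraries, and in each test the genes that pass or else the 3 of lowest p in each direction. *Ostn*, *Csmd3* and *Negr1*, and the list members *Hdac4*, *Mcm3* and *Dnajb1*, were named after their values were seen. Values of 2 genes that the rule names are not reported here. The members, lists and tests were chosen with earlier results of these data known, so no list is independent evidence.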

Additional observations from a re-analysis of the deposited data

Results flagged for a closer look

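Of 60 groups of 4 values examined in all cartilage barcodes, 7 had 1 value far from the other 3. The limit used flags about 1 in 20 groups of independent, normally distributed values. The values here were not checked for that shape, and each enters 2 groups, by fraction and by genotype. The 7 are therefore not compared with that rate. All 7 are normalised levels in CPM (UMIs scaled to a common total). *Col10a1* was 218.034 in the control cells of tdT- 2, against a next value of 40.6787 among the tdT- sums and 23.1241 among the control sums, and 1 barcode held 69.2% of these *Col10a1* UMIs before normalisation. *Ibsp* was 55.7203 in the highest *Pan-Cart-p21 MOE* sum against 4.57999 in the next, and 17.2132 in the highest control sum against 1.53578. *Comp* was 272.523 in the highest tdT+ sum against 136.561. *Ostn*, the secreted peptide osteocrin, was 9.64936 in the highest *Pan-Cart-p21 MOE* sum against 0.763332. *Hbb-y* was 0.127866 in 1 tdT+ sum and 0 in the other 3.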

How the results depend on the processing

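The lower share of hypertrophic barcodes in tdT+ cells kept its direction in all settings tried. It did not pass with at least 10 *Col10a1* UMIs (-2.69 points, exact permutation p = 0.257), with whole libraries (-4.90, exact permutation p = 0.333) or with the replicate block of embryo pools (-3.70, exact permutation p = 0.125, the smallest possible). Leaving out 1 sum gave -4.41 to -2.52 points with exact permutation p of 0.0286 to 0.0571, the latter when a tdT+ sum was left out, where it is the smallest possible. The genotype difference in share was -2.40 to 0.232 points without 1 sum and reversed to 0.232 without the control cells of tdT- 2, and its block within libraries changed no call (exact permutation p = 0.5). In the genotype comparison of hypertrophic barcodes, 0 genes became 3 with limma-voom, 20 with at least 3 *Col10a1* UMIs and 1 with the fractions of a pool summed. In the comparison of fractions, 0 became 4 with DESeq2, 46 without the filter on low counts, 260 with at least 10 *Col10a1* UMIs, 17 with collection as replicate block, 1 with the embryo pool as block, 1 with sums from 1 barcode and 3 to 257 without 1 library. For the interaction 0 became 5 with limma-voom and 5 with at least 3 *Col10a1* UMIs. In all cartilage barcodes, 2 genes between fractions became 20 with DESeq2, 1 with limma-voom, 414 without the filter, 1 without the top Scrublet scores, 30 with the pool as replicate block and 1 to 5 without 1 sum. The 13 genes 4-fold apart became 7 at 3 *Col10a1* UMIs, 24 at 10 (3 libraries), 173 at 2-fold, 30 in the tdT- libraries alone, 29 with near-identical sets once, 19 (6 higher and 13 lower) without sex-mixed barcodes or top Scrublet scores and 17 to 97 without 1 library. The causes were not tested. Genotype fits with at least 10 *Col10a1* UMIs, with 10 barcodes per sum, with the library as block or without 1 sum, and fraction fits from 10 barcodes per sum, could not be made, nor could the interaction at 10 UMIs, from 10 barcodes or without 1 sum. A share by library and genotype rests on at most 15 hypertrophic barcodes and a tdT+ share on at most 1, which limits the comparisons of shares.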
